A study of Mus musculus with 6 samples.

Results

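Mast cells and basophils are the granulocytes that carry the high-affinity IgE receptor and release histamine, and 8 genes that mark them were followed in LSK cells, the lineage-negative, Sca-1-positive, Kit-positive fraction of mouse bone marrow that holds stem cells and early multipotent progenitors. The 8 were found by symbol in the deposited table of 16403 genes. They are the mast cell proteases Cpa3 and Cma1, the basophil proteases Mcpt8 and Prss34, the IgE receptor chains Fcer1a and Ms4a2, the histamine-forming enzyme Hdc, and the granzyme gene Gzmb. The study set 3 libraries from C57BL/6 mice with ligature-induced periodontitis (LIP) against 3 libraries from C57BL/6 mice without a ligature (NL), with marrow taken on day 7. In this model a thread tied around a molar gathers bacteria and inflames the gum. Each library pooled 3 mice, and the labels used here give neither age nor sex.

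Both cell types arise from progenitors that express the transcription factors GATA1 and GATA2, and in the mouse a shared precursor can give rise to either. Mature mast cells finish their development in tissues and fill their granules with chymase, tryptases and carboxypeptidase A3, packed on the proteoglycan serglycin. Basophils mature in the marrow and, in mice, carry the protease products of Mcpt8 and Prss34. The IgE receptor of both cells joins the IgE-binding alpha chain (Fcer1a), the signal-amplifying beta chain (Ms4a2) and a gamma chain (Fcer1g), and Hdc is used by both cells as well.

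Library totals lay between 17780810 and 18841090 estimated counts, and 3 counts equalled 0.159 to 0.169 CPM, the count scaled to the library total. The sort markers Kit and Ly6a (Sca-1) were both measured, at means of 581 and 37.0 CPM in LIP and 512 and 38.7 CPM in NL. The neutrophil surface gene Ly6g had between 0 and 1 counts in LIP libraries and between 0 and 3 in NL libraries. Of the genes that define mature tissue mast cells, the tryptase gene Tpsb2 had at most 3 counts in any library and the chymase gene Mcpt4 at most 1, so no difference in them was detectable at this depth.

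Measured by edgeR's quasi-likelihood test across all genes, the mast cell protease gene Cpa3 and the IgE receptor gene Ms4a2 fell in LIP libraries, and the histamine enzyme gene Hdc and the basophil protease gene Prss34 rose. Mcpt8, Fcer1a and Gzmb did not pass the test. Cma1 was also called lower, but it passed the filter on low counts through its NL libraries alone, so its call is given as a description. The other called changes ranged from -0.34 to 0.29 on the log2 scale. Among all 12564 tested genes 29.9% were called at an adjusted p below 0.05, 14.1% higher and 15.8% lower in LIP, so a call was common in these libraries. The groups did not overlap in 5 of the 8 genes, Cma1 included, against 40.9% of all tested genes. The median log2 fold change was -0.15 over the 8 genes, which moved in both directions, and -0.001 over all tested genes. The value of -0.15 includes Cma1, at -1.43, so it does not show a shift of the 8 genes as a group.

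**Figure D1:**
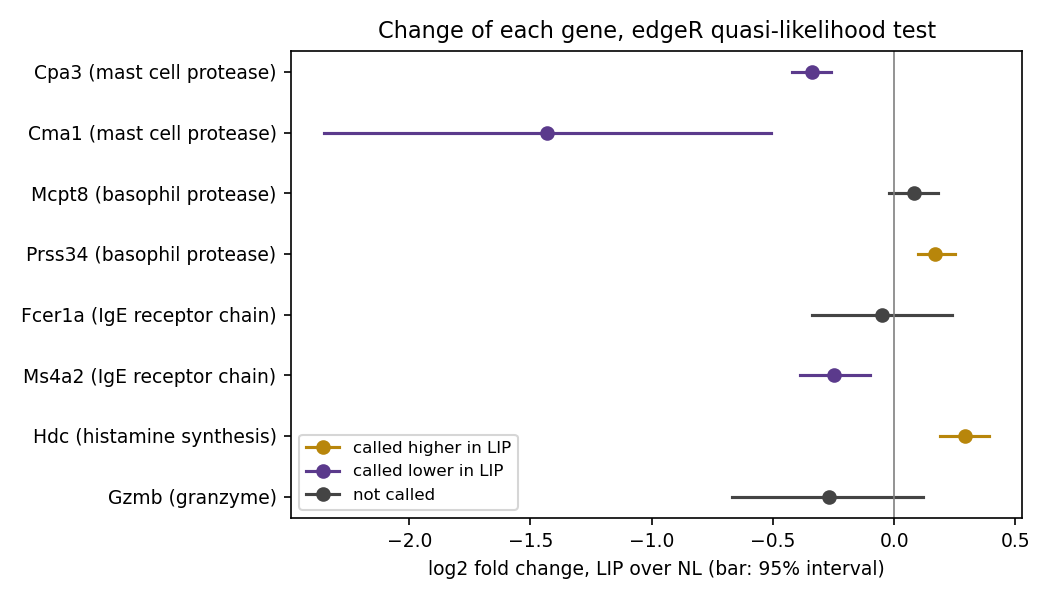
Log2 fold change of each gene, LIP over NL (x axis), with its 95% interval as a bar, for the 8 genes ordered by role (y axis). Cpa3, Cma1 and Ms4a2 lie left of 0, Hdc and Prss34 right of 0, and the intervals of Mcpt8, Fcer1a and Gzmb include 0.

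The start regions of 3 proteases are shown because Cpa3 fell and Prss34 rose, while all 3 share a short GATA-type word. Each ends at the base before the gene start given here and is from RefSeq on GRCm38.p6, with 222 bases for Cpa3 and 250 for the others. They are written 5′ to 3′ on the gene's strand, with GATAA or its reverse complement TTATC in capitals. Cpa3 is at chr3:20242210-20242431 (minus strand), Cma1 at chr14:55944676-55944925 (minus strand) and Prss34 at chr17:25298144-25298393 (plus strand).
Cpa3: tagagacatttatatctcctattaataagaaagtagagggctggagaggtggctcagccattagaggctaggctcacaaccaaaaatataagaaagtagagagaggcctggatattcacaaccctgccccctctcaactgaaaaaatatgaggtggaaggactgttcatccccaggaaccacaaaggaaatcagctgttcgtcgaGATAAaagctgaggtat
Cma1: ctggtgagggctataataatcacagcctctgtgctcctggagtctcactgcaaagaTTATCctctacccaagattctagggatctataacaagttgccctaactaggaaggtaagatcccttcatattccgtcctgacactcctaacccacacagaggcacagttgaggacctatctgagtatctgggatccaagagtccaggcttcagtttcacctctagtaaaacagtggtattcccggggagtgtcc
Prss34: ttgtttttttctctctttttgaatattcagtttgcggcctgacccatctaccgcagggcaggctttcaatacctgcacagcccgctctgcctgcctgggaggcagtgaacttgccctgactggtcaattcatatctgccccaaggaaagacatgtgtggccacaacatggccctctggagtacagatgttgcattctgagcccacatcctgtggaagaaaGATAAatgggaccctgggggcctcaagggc

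The match began 17 bases before the start in Cpa3, which fell, and 30 bases before it in Prss34, which rose. In Cma1 it began 194 bases before the start, on the opposite strand. The word GATAA, read on both strands, was present in the RefSeq table's 250-base start regions of 5 of the 8 genes (Cpa3, Cma1, Prss34, Fcer1a and Ms4a2). It was present in 22.6% of all 32851 RefSeq start regions of that length. That table takes 1 transcript start, and in 5 of the 8 genes, Cpa3, Mcpt8, Fcer1a, Ms4a2 and Hdc, the region reaches or lies inside the gene span, so the bases before the outermost start of Mcpt8 and Hdc were not searched. The E-box word CANNTG, its own reverse complement, was found in 7 of the 8, against 66.2% of all regions. Such matches are short and describe letters only.

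Levels were compared between genes as the authors' TPM, which are scaled to transcript length as well as to the library. In LIP libraries Prss34 was highest, at 188 ± 5.62 TPM (SD, n = 3), followed by Mcpt8 at 112 ± 4.86, Cpa3 at 98.6 ± 1.09 and Hdc at 41.7 ± 1.74 TPM. In NL libraries Prss34 was again highest, at 151 ± 2.66 TPM, followed by Cpa3 at 114 ± 3.90, Mcpt8 at 96.3 ± 4.48 and Hdc at 31.2 ± 1.10 TPM. The order of Cpa3 and Mcpt8 thus differed between the groups. In each group the library values of these neighbours did not overlap, with Mcpt8 above Cpa3 in LIP and Cpa3 above Mcpt8 in NL. Below Hdc the order was the same in both groups. Ms4a2 stood at 11.8 TPM in LIP and 12.8 TPM in NL, Fcer1a at 7.61 and 7.20, Gzmb at 2.69 and 2.99, and Cma1 at 0.453 and 1.11 TPM, and each of these neighbours was separated in both groups.

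**Figure D2:**
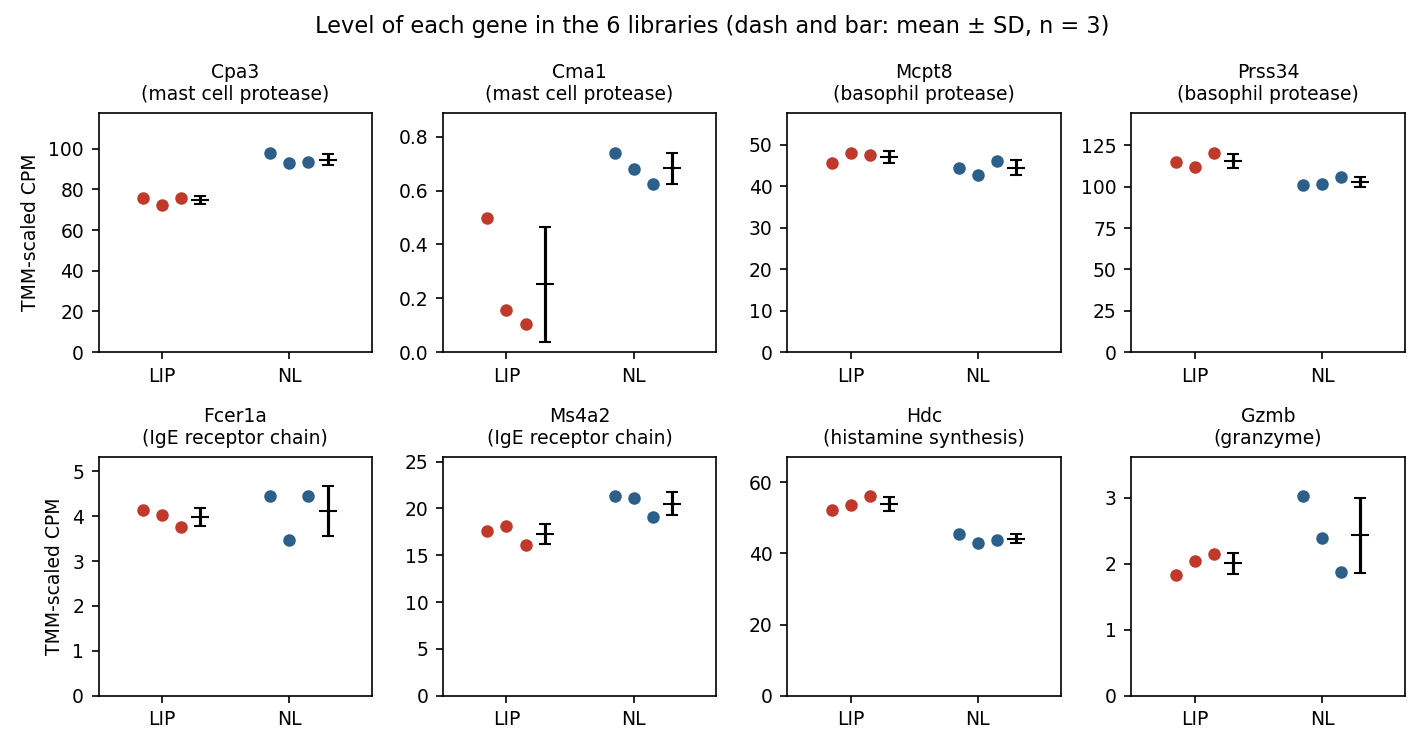
TMM-scaled CPM (y axis, from 0) of the 8 genes in each LIP and NL library (points), with mean ± SD as dash and bar (n = 3 per group). The LIP points lie below the NL points for Cpa3, Cma1 and Ms4a2, above them for Prss34 and Hdc, and among them for Mcpt8, Fcer1a and Gzmb.

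Cpa3 encodes carboxypeptidase A3, an exopeptidase of mast cell granules that is also made by basophils and their progenitors (GRCm38 chromosome 3, 20215616 to 20242209, minus strand). Its level was 75.7, 72.5 and 76.0 CPM in the LIP libraries, against 98.0, 92.8 and 93.3 CPM in the NL libraries. Every LIP library lay below every NL library. The mean was 74.7 ± 1.97 CPM in LIP and 94.7 ± 2.87 CPM in NL (SD, n = 3 each), a log2 fold change of -0.34 ± 0.04 (SE) with an adjusted p of 8.59e-10. This is a level 21.1% lower in CPM. In bulk RNA, fewer cells that express a gene and less of its RNA in each cell cannot be told apart, here and for every gene that follows.

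Cma1 encodes the mast cell chymase known as mMCP-5 in the mouse (chromosome 14, 55941451 to 55944675, minus strand). It had 9, 3 and 2 counts in the LIP libraries, against 13, 12 and 11 counts in the NL libraries. All LIP values were lower, and LIP-1 lay closer to the NL values than the other LIP libraries did. The summed counts of 14 in LIP and 36 in NL gave a ratio of 0.364, with a 95% exact interval of 0.181 to 0.692 that covers counting error only. The fitted log2 fold change was -1.43 ± 0.46 (SE), with an adjusted p of 0.0135. It passed the filter on low counts through its NL libraries alone, and LIP-2 and LIP-3 were at or under 3 counts. The call was lost without LIP replicate 2, LIP replicate 3 or NL replicate 1, with adjusted p of 0.0799, 0.106 and 0.0587, and without LIP replicate 1 the log2 fold change was -2.33.

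The basophil proteases took the other direction or passed no test. Prss34 encodes a tryptase-like serine protease, known as mMCP-11 (chromosome 17, 25298394 to 25300168, plus strand). It stood at 114.8, 112.1 and 120.4 CPM in the LIP libraries, against 100.8, 101.5 and 106.0 CPM in the NL libraries. The LIP libraries were all higher, by 12.6% in mean CPM. The log2 fold change was 0.17 ± 0.04 (SE), with an adjusted p of 0.000369.

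Mcpt8 encodes mMCP-8, a granzyme-like serine protease used as a marker of mouse basophils (chromosome 14, 56082163 to 56085499, minus strand). Its level was 45.5, 48.0 and 47.5 CPM in the LIP libraries, against 44.5, 42.6 and 46.2 CPM in the NL libraries. NL-3 lay above LIP-1, so the groups overlapped. The log2 fold change was 0.08, with a 95% interval of -0.02 to 0.18 and an adjusted p of 0.218. The call depended on the scaling: Mcpt8 was called higher with total counts alone (0.13, adjusted p 0.044), with offsets for transcript length (0.23, adjusted p 0.000388) or for length and GC content (0.23, adjusted p 0.000218), and by limma on the TPM scale (0.21, adjusted p 0.0029). The median of all tested genes was 0.044 with total counts alone and 0.124 on the TPM scale, against 0.004 and 0.003 under the offsets. Its effective length, from the deposited counts and FPKM, was 754 bases, the shortest of the 8.

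The chains of the IgE receptor were less abundant than the proteases Cpa3, Mcpt8 and Prss34. Ms4a2 (chromosome 19, 11615517 to 11623790, minus strand) was at 17.6, 18.1 and 16.1 CPM in the LIP libraries, against 21.3, 21.1 and 19.1 CPM in the NL libraries. All LIP values were lower, with LIP-2 the highest LIP library and NL-3 the lowest NL library. The log2 fold change was -0.25 ± 0.07 (SE), with an adjusted p of 0.00589. The call was lost on the TPM scale (-0.11, adjusted p 0.261) and with the offset for length and GC content (-0.12, adjusted p 0.214).

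Fcer1a (chromosome 1, 173221269 to 173227232, minus strand) had 75, 77 and 72 counts in the LIP libraries, against 78, 61 and 78 counts in the NL libraries. The groups overlapped, with NL-2 the lowest library and the remaining NL libraries the highest. Its log2 fold change was -0.05, with a 95% interval of -0.34 to 0.24 and an adjusted p of 0.841, and its sign turned in 5 of 19 alternative settings, of which 1 was the TPM scale, where its 0.09 lay under the median of all genes. The interval did not exclude a change of the size seen in Ms4a2. The gamma chain gene Fcer1g, shared with other Fc receptors, was at 75.0 CPM in LIP and 71.1 CPM in NL, a log2 fold change of 0.08 with an adjusted p of 0.212.

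Hdc encodes histidine decarboxylase, which makes histamine from histidine (chromosome 2, 126593659 to 126624025, minus strand). It was at 52.2, 53.6 and 56.1 CPM in the LIP libraries, against 45.6, 43.0 and 43.9 CPM in the NL libraries. Every LIP library lay above every NL library. The log2 fold change was 0.29 ± 0.05 (SE), with an adjusted p of 3.36e-06. The mean was 22.2% higher in LIP, the largest rise of the 8 genes.

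Gzmb encodes granzyme B, a serine protease of cytotoxic lymphocytes that mouse mast cells can also make (chromosome 14, 56258836 to 56262334, minus strand). It had 33, 39 and 41 counts in the LIP libraries, against 53, 42 and 33 counts in the NL libraries. The groups overlapped in CPM, with LIP-1 the lowest library and NL-1 the highest. The log2 fold change was -0.27, with a 95% interval of -0.67 to 0.12 and an adjusted p of 0.316. Its inhibitor gene Serpinb9 fell by 0.19 on the log2 scale (adjusted p 0.00975), a call lost in 4 of 18 alternative settings. Of 13 tested cytotoxic lymphocyte genes 3 rose (Nkg7, Il2rb and Cd3e) and none fell, with a median log2 change of 0.27. Among all tested genes 14.1% were called higher and 15.8% lower. Cd3e had 19 to 22 counts in LIP libraries and 6 to 11 in NL libraries. It passed the filter on low counts only because of its LIP libraries, so its call adds no support. Tbx21, not called but part of the median, passed in the same way. The calls of Cd3e and Il2rb were lost without NL replicate 2. The summed level of the 16 measured genes of that list was 162 to 179 CPM in LIP and 145 to 153 CPM in NL. Nkg7 made up most of this sum, at 139.6 CPM in LIP and 125.5 CPM in NL, so the sum says little about the other genes.

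The contrast between mast cell and basophil proteases was read within each library, as a ratio of TPM. The basophil proteases Mcpt8 and Prss34 summed to 288.5, 306.4 and 304.6 TPM in the LIP libraries, against 247.3, 240.4 and 253.9 TPM in the NL libraries. The mast cell proteases Cpa3 and Cma1 summed to 99.4, 97.8 and 99.9 TPM in the LIP libraries, against 119.9, 112.6 and 113.6 TPM in the NL libraries. The ratio of the sums was 2.90, 3.13 and 3.05 in LIP and 2.06, 2.13 and 2.24 in NL. On the log2 scale it averaged 1.60 ± 0.06 in LIP and 1.10 ± 0.06 in NL (SD, n = 3 each), a difference of 0.50. The groups did not overlap in this ratio. No test is given, since the genes were chosen with their direction known. Cpa3 alone was at 98.5, 97.5 and 99.7 TPM in LIP and 118.7, 111.5 and 112.6 TPM in NL, so the mast cell sum is almost only Cpa3. Because basophils and their progenitors also make Cpa3, the ratio does not measure the proportion of basophils to mast cells.

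Single pairs of genes showed which members kept their proportion. Prss34 over Cpa3 was 1.85, 1.95 and 1.93 in the LIP libraries, against 1.26, 1.34 and 1.37 in the NL libraries. Hdc over Cpa3 was 0.403, 0.433 and 0.432 in LIP and 0.273, 0.271 and 0.276 in NL. Hdc, made by both cell types, thus moved away from Cpa3 by 0.63 on the log2 scale, more than Prss34 (0.53) or Mcpt8 (0.43) did. Ms4a2 over Cpa3 was 0.120, 0.131 and 0.109 in LIP and 0.113, 0.117 and 0.105 in NL, so the groups overlapped. Fcer1a over Ms4a2 also overlapped, at 0.662, 0.613 and 0.657 in LIP and 0.584, 0.459 and 0.653 in NL. Mcpt8 over Prss34 was 0.586, 0.611 and 0.581 in LIP and 0.652, 0.612 and 0.649 in NL, with LIP-2 and NL-2 nearly equal.

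**Figure D3:**
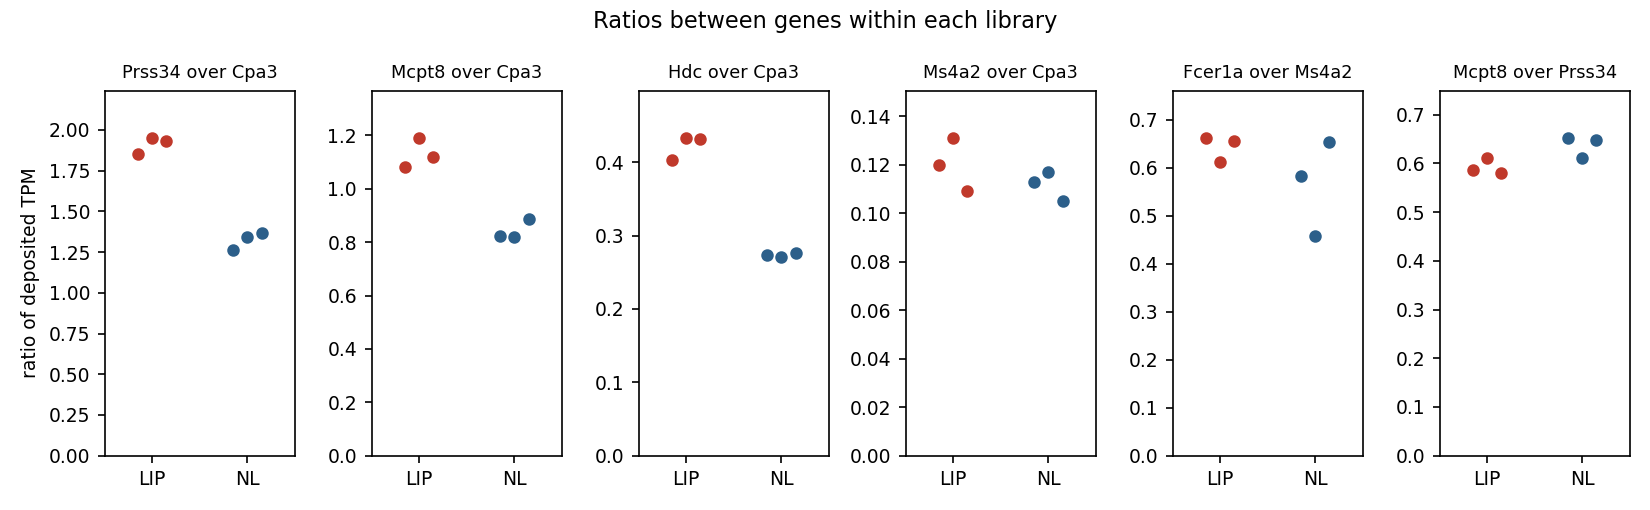
Ratios of deposited TPM between pairs of genes (y axes, from 0) in each LIP and NL library (points). The LIP points lie above the NL points for Prss34, Mcpt8 and Hdc over Cpa3, and the groups overlap for Ms4a2 over Cpa3 and Fcer1a over Ms4a2.

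The genes also differ in where they lie. Cma1, Mcpt8 and Gzmb belong to the serine protease cluster of chromosome 14, with 137487 bases between Cma1 and Mcpt8 and 173336 between Mcpt8 and Gzmb. RefSeq lists 13 coding genes between Cma1 and Gzmb, and 4 of them had a row in the table. Besides Mcpt8 these were Mcpt4 and Gzmc, with at most 1 count in any library, and Ctsg. Ctsg, the cathepsin G gene of neutrophil primary granules and some mast cells, averaged 555 CPM in LIP and 517 CPM in NL. It rose by 0.10 on the log2 scale (adjusted p 0.0117), a call lost without LIP replicate 3 or NL replicate 2. Mcpt8 and Gzmb, in the same cluster, were not called.

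Ms4a2 lies among its MS4A relatives on chromosome 19, and 5 of these were called higher. Within 250 kb of it, 10 coding genes were tested, of which 5 rose, Ms4a4a included, and none fell. Among all tested genes 14.1% were called higher. The risers were Ms4a3, Ms4a6c, Ms4a4b, Ms4a4c and Ms4a4a, while the relatives Ms4a6b (0.05, adjusted p 0.53) and Ms4a6d (0.32, adjusted p 0.201) were not called. Ms4a3, a gene of granulocyte-monocyte progenitors that lies 5709 bases from Ms4a2, averaged 150.1 CPM in LIP and 133 CPM in NL, a log2 fold change of 0.18 with an adjusted p of 0.00011. Ms4a6c rose by 0.20 and Ms4a4b by 0.55. Ms4a4c rose by 0.30 and Ms4a4a by 1.33, and both calls were lost in 2 alternative settings. Ms4a4a averaged 0.726 CPM in LIP and 0.284 CPM in NL and passed the filter on low counts through its LIP libraries alone, so its call adds no support.

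Patterns over the 6 libraries were compared by Pearson's r of log2 CPM, as a description. The libraries share the LIP and NL grouping, so genes with any group difference score high. Only tested genes with a symbol of their own were compared, without predicted Gm, Rik or LOC genes. Of these, 8.38% reached an r over 0.9 with Cpa3. The most similar of them to Cpa3 were Lsm3 (r = 0.9990), Immp1l (0.9985) and Snrpb2 (0.9972). For Prss34 they were Slc35f6 (0.9980), Usp19 (0.9954) and the Ms4a2 neighbour Ms4a3 (0.9927), and for Hdc they were Arrb1 (0.9974), Rab24 (0.9973) and Runx3 (0.9960). Among the members, the strongest r was -0.99, between Prss34 and Ms4a2. It was 0.92 between Hdc and Prss34, 0.84 between Cpa3 and Ms4a2, and -0.92 between Cpa3 and Hdc. Both Cpa3 with Prss34 and Ms4a2 with Hdc gave -0.88. Fcer1a stayed between -0.14 and 0.29 with every other member.

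Other genes of these cell types are set against the 29.9% of all tested genes that were called. A list of further mast cell genes had 10 in the table, of which 6 were tested and 1, Ctsg, was called; with the length offset 2 were. The prostaglandin synthase gene Hpgds averaged 3.62 CPM in LIP and 3.58 CPM in NL, the leukotriene synthase gene Ltc4s 6.76 and 6.90, and Cd63 114 and 112 CPM, none of them called. The serotonin transporter gene Slc6a4 had 8 to 15 counts in LIP libraries and 2 to 5 in NL libraries, with no overlap, and was too low to be tested. Without Ctsg the summed level of the list was 133 to 140 CPM in LIP and 129 to 144 CPM in NL. Cd63 made up most of this sum, which therefore says little about the other genes of the list. Of 12 tested basophil genes none rose and 1 fell, the activation marker Cd69, by 0.45 on the log2 scale. Cd200r3, a receptor of mouse basophils and mast cells, had 55 to 84 counts in LIP and 47 to 53 in NL, a log2 fold change of 0.29 with an adjusted p of 0.198. The highest levels of the list were those of Ifitm1, at 157 CPM in LIP and 166 in NL, and Itga2b, at 119 and 113. Cd200r4 averaged 1.235 and 1.251 CPM and Ccr3 1.401 and 1.516, with SE of 0.27 and 0.24 on the log2 scale. Small changes in such low genes could not be resolved, so the list does not show that basophil genes were unchanged. With total counts alone 4 of the 12 were called higher and 1 lower, and on the TPM scale likewise.

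Of 23 tested genes listed for signalling below the IgE receptor 10 rose and none fell, with a median log2 change of 0.10. Among all tested genes 14.1% were called higher and 15.8% lower. The list also holds Fcer1g, a chain of the receptor itself, and Ms4a4b, an MS4A relative of Ms4a2. Ms4a4b is counted among the 10 and again among the risers near Ms4a2. Without LIP replicate 3 the list had 10 higher and 1 lower. With total counts alone 15 rose, and on the TPM scale 21, which are scalings that move the median of all tested genes to 0.044 and 0.124. Gab2, an adaptor of mast cell IgE signalling, averaged 48.1 CPM in LIP and 37.5 CPM in NL, a log2 fold change of 0.36. Plcg2, a phospholipase, and Pik3cd, a kinase subunit, rose by 0.16 and 0.18, and the Ms4a2 relative Ms4a4b by 0.55. Syk, the kinase that binds the receptor's gamma chain, averaged 313 CPM in LIP and 305 CPM in NL (adjusted p 0.388). These genes serve many receptors of blood cells and are not specific to IgE.

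Genes of histamine handling and of granule contents were divided. Of 13 tested, 6 rose and 3 fell, against 14.1% higher and 15.8% lower among all tested genes, and the median log2 change was 0.07. Slc18a2, the transporter that loads histamine into granules, rose by 0.13 and the histamine receptor gene Hrh2 by 0.27 on the log2 scale, calls lost in 4 and 2 of 18 alternative settings. The histamine-degrading enzyme gene Hnmt averaged 12.6 CPM in LIP and 12.9 CPM in NL, a log2 fold change of -0.03. Srgn, the serglycin core protein gene, fell by 0.16, a call lost on the TPM scale and under both offsets, and under the one for length plus GC content its value was 0.03. Ndst1 and Ndst2, which sulfate the heparin and heparan chains, rose by 0.22 and 0.19. Ctsc, which activates granule proteases, rose by 0.12, a call lost in 6 settings, and its inhibitor gene Cst7 by 0.16. With DESeq2 the list had 3 higher and 1 lower.

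Among transcription factors of these lineages 5 of 16 rose and 1 fell, with a median of 0.07. This count and that of the receptors below are read against 14.1% higher and 15.8% lower among all tested genes. Gata2 averaged 166 CPM in LIP and 152 CPM in NL, a log2 fold change of 0.13, a call lost with the length and GC offset. Gata1, at 37.8 CPM in LIP and 39.0 CPM in NL, and the mast cell factor gene Mitf, at 6.99 and 6.65 CPM, were not called. Irf8, Spi1 and Zeb2 rose by 0.28, 0.16 and 0.17, and Tal1 fell by 0.15, a call lost on the TPM scale. With total counts alone 8 of the 16 rose. Of 14 tested receptor genes 6 rose and 2 fell, with a median of 0.09. Kit, the receptor of the mast cell growth factor and a marker of the sort, rose by 0.18. Csf2rb encodes the beta chain shared by the receptors for IL-3, IL-5 and GM-CSF, and Csf2rb2 a beta chain of the IL-3 receptor alone. Csf2rb rose by 0.44 and Csf2rb2 by 0.63, and they can share reads. The GM-CSF receptor alpha chain gene Csf2ra rose by 0.32. Il3ra, the alpha chain for IL-3, averaged 35.3 CPM in LIP and 34.6 CPM in NL and was not called. The falls were in Il18r1, by 0.44, and in the IL-33 receptor gene Il1rl1, by 0.19, a call lost in 10 of 18 settings.

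Markers of other blood cells also moved, and their counts are read against 14.1% higher and 15.8% lower among all tested genes. Of 10 tested eosinophil genes 7 rose and none fell, with a median of 0.43, and their summed level was 98.4 to 105.7 CPM in LIP and 74.1 to 77.5 CPM in NL. Epx, the eosinophil peroxidase gene, averaged 16.3 CPM in LIP and 10.6 CPM in NL, and Prg2, the major basic protein gene, 41.2 and 33.7 CPM. All 10 neutrophil granule genes rose, with a median of 0.39 and summed levels of 7747 to 8148 CPM in LIP and 6342 to 6384 CPM in NL. Elane, the neutrophil elastase gene, averaged 1069 CPM in LIP and 815 CPM in NL. Of 8 tested genes of lineage surface markers 5 rose, among them Itgam by 0.35, Ptprc by 0.16 and Cd79a by 0.41. The 5 include Cd3e, which passed the filter on low counts only because of its LIP libraries. Summed levels of this list were 355 to 378 CPM in LIP and 322 to 331 CPM in NL. Ptprc made up most of this sum, at 257.8 CPM in LIP and 230.2 CPM in NL, so the sum says little about the other genes. Gene-level counts do not separate the forms of Ptprc, so it does not mark a single lineage here. Of 8 genes of LSK cells Kit and Ly6e rose and none fell, though the call of Ly6e was lost in 5 of 18 settings, its groups overlapped, and 1 gene was called lower without LIP replicate 1 or NL replicate 1, with summed levels of 3236 to 3308 CPM in LIP and 3116 to 3168 CPM in NL. Their part in the levels of the 8 genes was not tested.

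**Figure D4:**
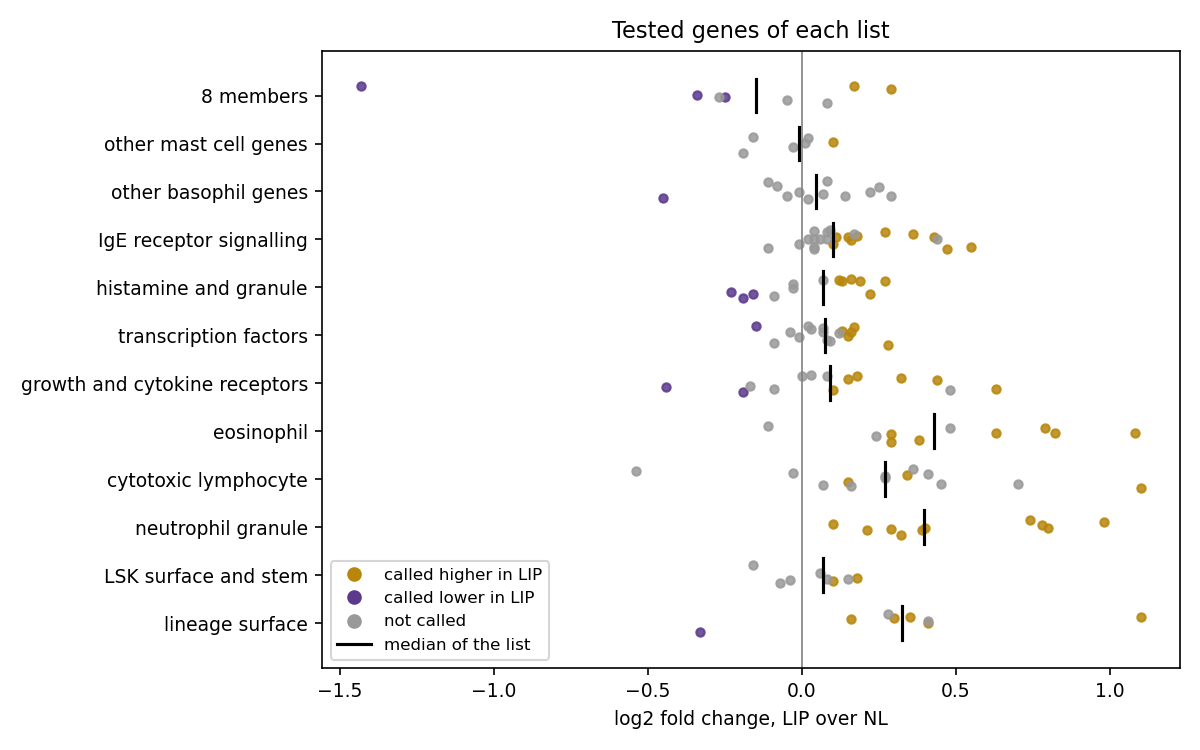
Log2 fold change, LIP over NL (x axis), of each tested gene (points) in the 8 members and in 11 lists (y axis), with a vertical line at the median of each list. The members spread to both sides of 0, the medians of the other mast cell and basophil genes are -0.01 and 0.05 with Cd69 at -0.45, and the eosinophil and neutrophil granule lists lie to the right, with medians of 0.43 and 0.39.

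The genes differed in how far their calls held under other settings. The calls of Cpa3, Hdc and Prss34 held under all 19, that of Cma1 was lost in 4 of 17, that of Ms4a2 in 2, and that of Mcpt8 was gained in 4.

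**Figure D5:**
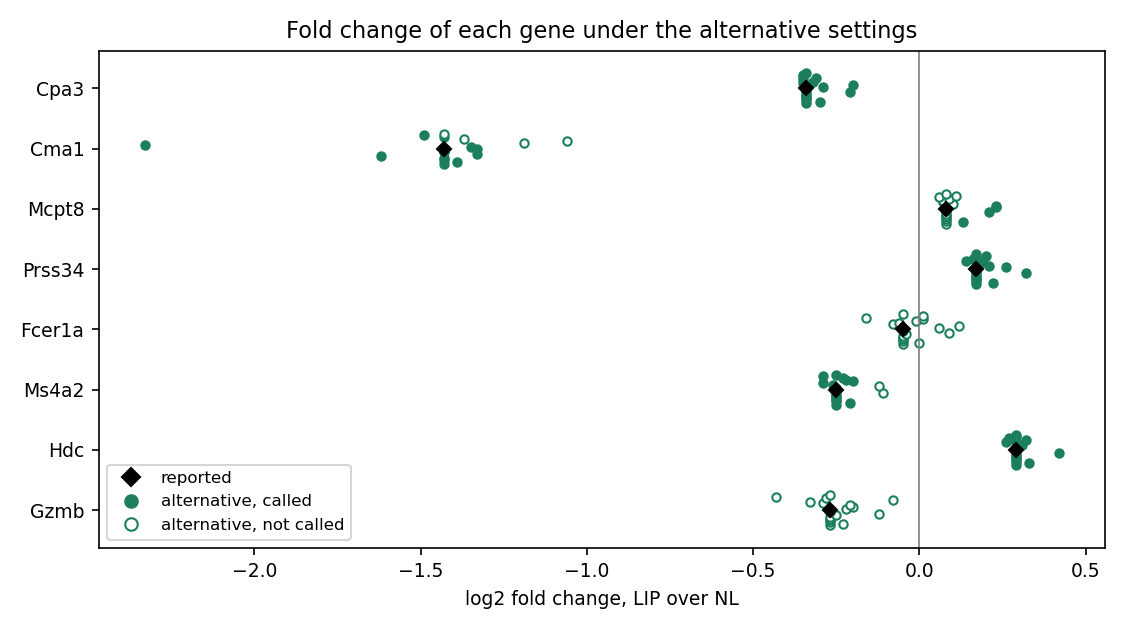
Log2 fold change, LIP over NL (x axis), of each of the 8 genes (y axis) as reported (diamonds) and under the alternative settings (circles, filled where called). Cpa3, Hdc and Prss34 are filled throughout, Fcer1a crosses 0, and Cma1 ranges from -2.33 to -1.06.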

How the data were processed

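Estimated counts, FPKM and TPM for each of 6 libraries were taken from the table deposited by the authors. Per the labels' protocols, libraries were polyA-selected and sequenced as 100 bp paired-end reads. The submitters' processing notes list STAR, HTSeq and GRCm38 with no version, and no source used here says which tool gave the deposited estimated counts, TPM and FPKM. Deposited FPKM values served only to derive effective lengths. The 6 columns of the authors' group means were not used. All 8 genes had whole counts in all libraries. The counts of other genes with decimals can reflect reads divided between copies.

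The test was planned for counts and kept for estimated counts, which were rounded. Genes were filtered with filterByExpr (12564 tested, 3839 left out), scaled by TMM and compared by edgeR 4.0.16 (R 4.3.3), with a robust quasi-likelihood fit on group alone and Benjamini-Hochberg adjustment over all tested genes. Standard errors come from the test statistic and intervals are 95%. CPM values are TMM-scaled, and p-values measure the spread between pools of 3 mice. The script was tested on simulated data. Library totals of about the same size limit precision mainly for genes with few counts.

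The members and the 11 gene lists were chosen with earlier results of these data known. Text names all members and, by rule, up to 4 called genes with the smallest adjusted p in each list. Other named genes (Slc18a2, Hrh2, Hnmt, Ctsc, Serpinb9, Gata1, Gata2, Mitf, Il3ra, Il18r1, Il1rl1, Syk, Fcer1g, Hpgds, Ltc4s, Cd63, Cd200r3, Cd200r4, Ccr3, Ifitm1, Itga2b, Tbx21, Slc6a4 and the gene neighbours) were chosen after their values were seen. The result of 1 gene of the lineage surface list is not reported here. Positions and start regions are from RefSeq on GRCm38.p6. Alternatives were DESeq2 1.42.0, limma 3.58.1 (voom, and log2(TPM + 0.1)), other scaling factors and filters, a replicate block, a length offset (lowess, span 0.3), a stricter threshold and leaving out each library. An offset for length and GC content was added after the data were seen.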

Additional observations from a re-analysis of the deposited data

How the results depend on the processing

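Over 19 alternative settings the calls of Cpa3, Hdc and Prss34 held in every one, with log2 fold changes of -0.35 to -0.20, 0.26 to 0.42 and 0.14 to 0.32. Gzmb stayed uncalled, from -0.43 to -0.08. The members called numbered 2 or 3 higher and 2 or 3 lower in each setting. Cma1 had no value under the stricter filter and no adjusted p from DESeq2, and at an adjusted p below 0.01 it was not called. Fcer1a turned positive on the TPM scale (0.09), with the length offset (0.06), with the length and GC offset (0.12), and at 0.01 without NL replicate 1 or NL replicate 3, with no call in any, and leaving out each library gave -0.16 to 0.01. The basophil to mast cell protease difference ranged from 0.47 to 0.53 when each library was left out, and was 0.49 from CPM and 0.48 with Ms4a2 and Gzmb in the mast cell sum.

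Over all genes, 1776 were called higher and 1984 lower. Total counts alone gave 2756 and 1301, and limma on log2(TPM + 0.1) gave 4560 and 542. On the TPM scale the median log2 fold change of all tested genes was 0.124, so values on that scale are read against it. DESeq2 gave 1167 and 1317, and the threshold of 0.01 gave 1148 higher. Leaving out 1 library gave 1437 to 1590 higher and 1550 to 1807 lower. With the replicate number as a block the counts were 1750 and 1979, and the members' calls were 2 higher and 3 lower. Libraries with the same number did not deviate together (r of 0.03, -0.02 and -0.11), so the number was not taken to pair them.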
